A study of Mus musculus with 59 samples.

Results

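Glucose uptake and glycolysis were followed in mouse brown adipose tissue (BAT) through 10 genes, taken as the rows of Slc2a1, Slc2a4, Hk1, Hk2, Pfkl, Pfkp, Pkm, Ldha, Ldhb and Pdk4 among the 55341 genes listed in each of 3 count tables. RNA of the BAT of 59 male C57BL/6J mice, labelled as 8 to 12 weeks old, was sequenced, with 1 library per mouse. In the first experiment every mouse ate food with propylthiouracil (PTU), which blocks thyroid hormone synthesis, for 2 weeks. WT mice were then taken without hormone (4 mice) or 3, 6, 12 or 24 h after a single injection of thyroid hormone (TH, T3 with T4, 4 mice each), and BATKO mice without hormone (5 mice) or 24 h after it (5 mice). In the second, control (CTRL) mice were housed at 4 °C for 24 h (3 mice) or at 30 °C (4 mice), as were BATKO mice (4 and 5). In the third, CTRL mice ate chow (4 mice) or a high-fat diet (HFD) for 3.5 days (4 mice), as did BATKO mice (2 and 3). Neither the labels nor the study's text says which gene was changed in BATKO mice or in which cells, so that BATKO is used here as a label only.

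Glucose enters a cell through GLUT transporters, is phosphorylated by hexokinase, committed to glycolysis by phosphofructokinase and turned into pyruvate by pyruvate kinase. Lactate dehydrogenase interconverts pyruvate and lactate, and pyruvate dehydrogenase kinases such as Pdk4 restrain the entry of pyruvate into the mitochondrial cycle. Brown fat burns fatty acids and glucose to make heat through Ucp1, and takes up much glucose when sympathetic nerves activate it in the cold. Among the 10 genes, Slc2a1 encodes the widespread transporter GLUT1 and Slc2a4 the insulin-responsive GLUT4, Hk1 and Hk2 the 2 hexokinases, Pfkl and Pfkp the liver and platelet types of phosphofructokinase, Pkm the muscle-type pyruvate kinase, and Ldha and Ldhb the 2 main lactate dehydrogenase subunits.

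All 10 are protein-coding genes of GRCm38 and have introns. The transporters lie at chr4:119108711-119137983, plus strand (Slc2a1) and chr11:69942539-69948188, minus strand (Slc2a4). The hexokinases lie at chr10:62268855-62379908, minus strand (Hk1) and chr6:82725025-82774454, minus strand (Hk2), and the phosphofructokinases at chr10:77986947-78010083, minus strand (Pfkl) and chr13:6579768-6648777, minus strand (Pfkp). Pkm lies at chr9:59656368-59679375, plus strand. Ldha lies at chr7:46841475-46855627, plus strand, Ldhb at chr6:142490249-142507957, minus strand and Pdk4 at chr6:5483351-5496309, minus strand. Exons of other annotated genes overlap those of 4 members, namely Pitrm1 with Pfkp on the opposite strand (748 bases), Hk1os with Hk1 (157 bases), Gm12868 with Slc2a1 (105 bases) and Gm49759 with Pkm on the same strand (767 bases). The strand setting of the counting is not given in the sources used here, so that reads of these stretches could belong to either gene. Ldha has annotated pseudogene copies that could share its reads. Such copies were sought by gene name only, so copies of any member under other names would have been missed.

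Promoter sequences are shown for 3 members because these windows hold a short word that known regulators of metabolic genes bind and no annotated exon base. Windows of Slc2a1 and Pkm also hold such words but overlap annotated exons, and are not printed. ACGTG is a form of the core of hypoxia response elements and part of CACGTG, the class of E-box read by Myc, and AGGTCA is the half-site read by thyroid hormone receptors and other nuclear receptors. Each run below gives the 250 bases before the RefSeq start, 5′ to 3′ on the gene's strand, on GRCm38.p6, and capitals mark ACGTG or AGGTCA on either strand. The windows are chr6:82774455-82774704, minus strand (Hk2), chr7:46845554-46845803, plus strand (Ldha) and chr6:142507958-142508207, minus strand (Ldhb).
Hk2: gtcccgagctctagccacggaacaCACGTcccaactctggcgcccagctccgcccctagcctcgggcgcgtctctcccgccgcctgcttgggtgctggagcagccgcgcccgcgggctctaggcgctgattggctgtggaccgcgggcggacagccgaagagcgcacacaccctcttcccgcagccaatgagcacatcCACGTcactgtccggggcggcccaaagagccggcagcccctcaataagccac
Ldha: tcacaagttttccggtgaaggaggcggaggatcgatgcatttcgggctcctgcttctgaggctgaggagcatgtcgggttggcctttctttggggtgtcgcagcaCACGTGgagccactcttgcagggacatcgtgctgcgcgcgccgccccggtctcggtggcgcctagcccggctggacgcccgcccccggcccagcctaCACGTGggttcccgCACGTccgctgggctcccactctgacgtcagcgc
Ldhb: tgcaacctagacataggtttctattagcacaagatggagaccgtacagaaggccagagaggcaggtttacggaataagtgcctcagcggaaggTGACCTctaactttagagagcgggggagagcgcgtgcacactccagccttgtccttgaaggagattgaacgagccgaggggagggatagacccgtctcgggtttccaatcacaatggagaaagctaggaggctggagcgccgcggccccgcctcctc
The Hk2 window held 2 matches of ACGTG, and the Ldha window 5, counted on both strands, so that the Myc E-box counts on each. The Ldhb window held 1 match of AGGTCA. The table of promoters covered 9 of the 10 members, all but Slc2a4, with 12 windows, of which 4 held ACGTG and 2 held AGGTCA. Over all 32851 windows of the same length, 16.6% held ACGTG, 6.02% held the Myc E-box, which overlaps the first word, and 14.0% held AGGTCA. A match describes the letters of the window only.

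Total counts per mouse ran from 7805938 to 18073627 in the TH experiment, from 8008348 to 12887313 in the temperature experiment and from 7612059 to 11533900 in the diet experiment. Mitochondrial genes took 39.25% to 55.66% of them. Values below are normalized CPM, counts scaled to a common library size, and an adjusted p is from the edgeR quasi-likelihood test with Benjamini-Hochberg adjustment over all genes tested. A gene was called when its adjusted p was below 0.05. As tissue checks, Ucp1 was at 146 CPM or more and Cidea at 235 CPM or more in every mouse, while Elovl3 fell to 0.0798 CPM in a mouse at 30 °C. The summed CPM of 10 skeletal muscle markers varied within groups, from 0.958 to 4739 among CTRL mice and from 0.87 to 8442 among BATKO mice at 30 °C. Slc2a4, Hk2 and Pdk4 are also expressed in muscle, so the cold comparisons were also fitted without the 3 mice highest in these markers, 1 CTRL and 2 BATKO mice at 30 °C. The hormone-responsive gene Hr, a check of the injection, lay at 0.690 to 1.41 CPM in hypothyroid WT mice and at 21.0 to 30.4 CPM 24 h after TH. In BATKO mice it lay at 0.832 to 3.78 CPM without TH and at 0.870 to 4.62 CPM after it. In bulk tissue, fewer cells of a type and less RNA per cell cannot be told apart.

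Per kilobase of exon, the 10 genes spanned a wide range in hypothyroid WT mice (mean ± SD, n = 4). Pdk4 was highest at 356 ± 57.2 CPM per kb, followed by Ldha at 139.7 ± 17.1 and Ldhb at 106 ± 8.16. Slc2a4 (42.1 ± 5.98), Pkm (31.3 ± 4.45) and Hk2 (19.3 ± 5.27 CPM per kb) formed the middle. Pfkl (8.89 ± 2.05), Pfkp (3.48 ± 0.689), Slc2a1 (1.38 ± 0.0809) and Hk1 (0.451 ± 0.0477 CPM per kb) were lowest. GLUT4 mRNA was thus far more abundant than GLUT1 mRNA, and Hk2 mRNA than Hk1 mRNA. Between neighbours in this order the ranges of the 4 mice overlapped for 3 pairs, Ldha and Ldhb, Slc2a4 and Pkm, and Pkm and Hk2, and for no other pair. In CTRL mice at 4 °C (n = 3) Ldha led at 524 ± 159 CPM per kb, ahead of Pdk4 at 233 ± 43.1 and Ldhb at 188 ± 38.5, and Hk1 at 6.18 ± 1.21 stood above Slc2a1 at 2.84 ± 0.877.

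To follow the response to TH over time, each treated WT group was set against the hypothyroid WT mice. The transporter gene Slc2a4 and the hexokinase gene Hk1 were called at 3 of the 4 times, Ldhb at 12 and 24 h, Hk2 at 12 h and Pkm at 24 h, and no member fell past the threshold with edgeR as described. At 3 h 0 of the 10 genes were called by edgeR, beside 9.19% of the 13003 genes tested, with 3 of the 10 at an unadjusted p below 0.05 and 1, Hk1, called by DESeq2. At 6 h 2 were called (Slc2a4 and Hk1, background 23%), at 12 h 4 (Slc2a4, Hk1, Hk2 and Ldhb, background 25.7%) and at 24 h 4 (Slc2a4, Hk1, Pkm and Ldhb, background 32.7%). All these calls were rises. The median log2 fold change of the 10 was 0.12 at 3 h and 0.06 at 6 h, beside 0.0098 and -0.004 over all genes tested. Later it was 0.12 at 12 h and 0.36 at 24 h, beside -0.02 and 0.0081. These 4 comparisons share the same control mice.

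**Figure D1:**
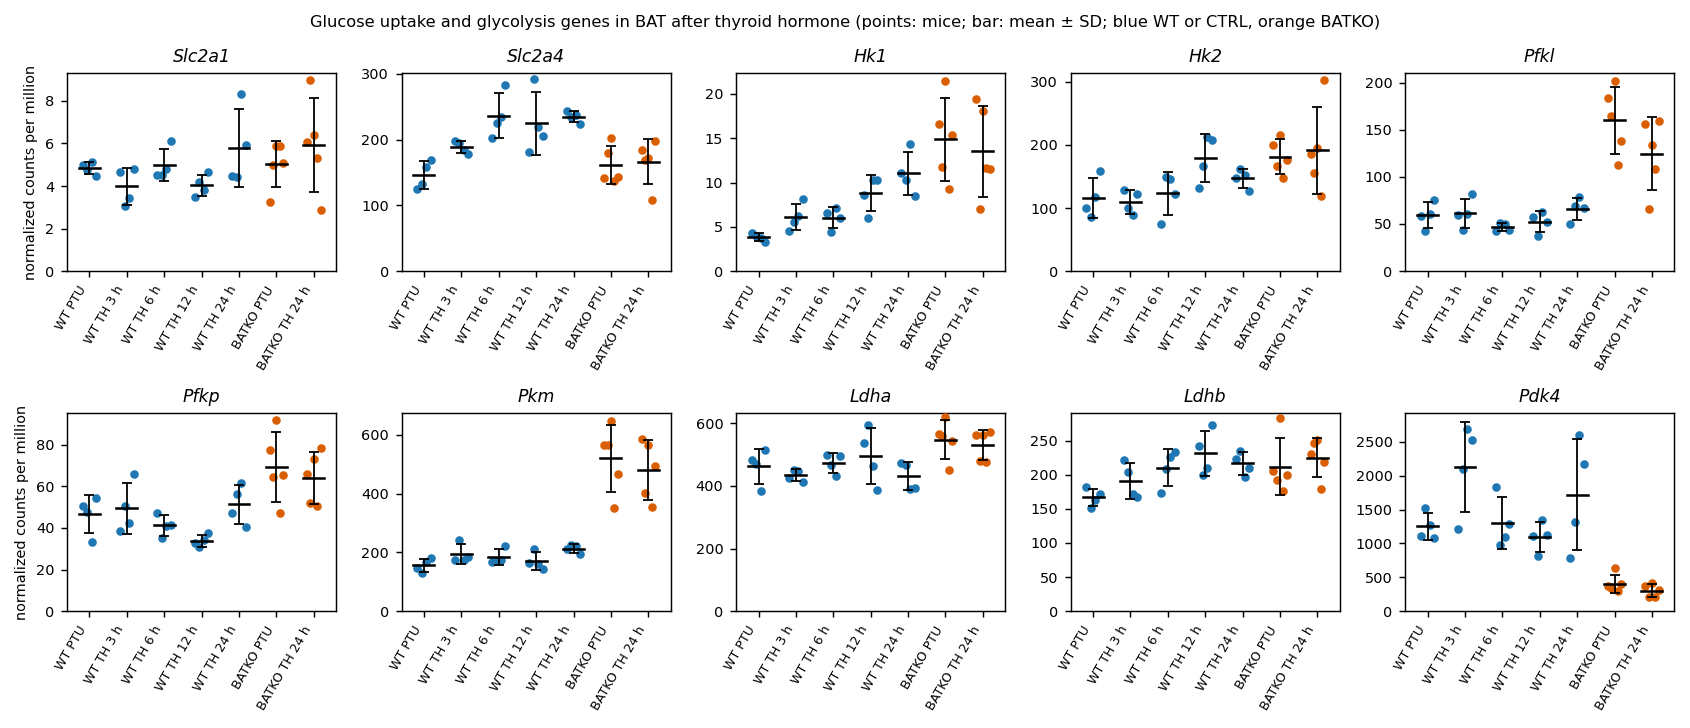
Normalized CPM (linear axis from 0) of each of the 10 genes in every mouse of the TH experiment, by group, with points for mice and bars for the mean ± SD, blue for WT or CTRL and orange for BATKO mice. Hk1 climbs from 3.34 to 4.29 CPM in hypothyroid WT mice to 8.46 to 14.4 CPM at 24 h, while BATKO mice with and without TH overlap for every gene.

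Slc2a4 was at 125, 133, 158 and 169 CPM in the 4 hypothyroid WT mice and at 198, 194, 185 and 178 CPM at 3 h. At the later times the values were 202, 226, 235 and 284 CPM (6 h), 181, 292, 220 and 206 CPM (12 h) and 244, 234, 238 and 224 CPM (24 h). Every treated mouse at every time was above every control mouse. The rise was 1.6-fold at 6 h (log2 fold change 0.68, SE 0.13, adjusted p = 0.000844), 1.54-fold at 12 h (log2 fold change 0.62, SE 0.13, adjusted p = 0.00120) and 1.6-fold at 24 h (log2 fold change 0.68, SE 0.13, adjusted p = 0.000431). At 3 h, although the groups did not overlap, it did not pass (log2 fold change 0.34, SE 0.13, adjusted p = 0.101). Slc2a1 stayed at low counts, at 4.98, 4.75, 5.13 and 4.48 CPM without hormone and 4.48, 4.41, 8.33 and 5.91 CPM at 24 h, and the groups overlapped (log2 fold change 0.26, SE 0.19, adjusted p = 0.309, 95% interval -0.11 to 0.64).

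Hk1, which binds the outer mitochondrial membrane and serves basal glucose phosphorylation, was at 4.29, 4.02, 3.74 and 3.34 CPM in hypothyroid WT mice. These values are also low, resting on 38 to 59 counts per mouse, against 51 to 81 for Slc2a1. Hk1 was at 4.56, 5.56, 6.19 and 8.09 CPM at 3 h, 6.61, 4.43, 7.09 and 6.04 CPM at 6 h, 8.62, 6.04, 10.3 and 10.3 CPM at 12 h and 11.1, 10.3, 14.4 and 8.46 CPM at 24 h. No treated mouse lay below the highest control mouse, and the mean at 24 h was the highest of the course, although mice at 12 and 24 h overlapped. The rise was 1.56-fold at 6 h (log2 fold change 0.64, SE 0.22, adjusted p = 0.0353), 2.3-fold at 12 h (log2 fold change 1.20, SE 0.21, adjusted p = 0.000248) and 2.86-fold at 24 h (log2 fold change 1.52, SE 0.21, adjusted p = 1.16e-05). The 6 h call was lost on leaving out any 1 of 6 of the 8 mice. Hk2, the insulin-regulated hexokinase of muscle and fat, was at 101, 85.1, 118 and 158 CPM without hormone and 132, 166, 212 and 207 CPM at 12 h. Its groups overlapped, with a 1.56-fold rise at 12 h (log2 fold change 0.64, SE 0.21, adjusted p = 0.0255) that was lost on leaving out any 1 of 4 of the 8 mice. At 24 h Hk2 was at 148, 162, 152 and 126 CPM and was not called (log2 fold change 0.35, SE 0.21, adjusted p = 0.208).

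Pfkl was at 58.7, 42.5, 60.3 and 75.9 CPM in hypothyroid WT mice and 49.5, 68.8, 78.3 and 66.7 CPM at 24 h, and the groups overlapped (log2 fold change 0.15, SE 0.19, adjusted p = 0.586). Pfkp was at 50.8, 47.8, 33.4 and 54.5 CPM without hormone, 32.6, 30.6, 34.2 and 37.5 CPM at 12 h and 47.3, 56.2, 61.8 and 40.4 CPM at 24 h. Against the controls it was called at no time, but the lower level at 12 h passed without mitochondrial genes, without the filter and with only the groups compared. Between successive times, Pfkp was the 1 gene of the 10 called from 12 to 24 h (log2 fold change 0.60, SE 0.17, adjusted p = 0.0296, background 11.4%), a call lost on leaving out any 1 of 5 of the 8 mice. Of the 10 muscle markers 5 were also called up between these times, their sum running from 3.92 to 307 CPM at 12 h and from 272 to 1178 CPM at 24 h, and their part in the Pfkp result was not tested. From 3 to 6 h (background 2.8%) and from 6 to 12 h (background 2.95%) edgeR and DESeq2 both called 0 of the 10, with 2 at an unadjusted p below 0.05 in each.

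Pkm was at 148, 129.9, 167 and 181 CPM in hypothyroid WT mice and at 212, 225, 221 and 193 CPM at 24 h. All treated mice lay above all controls, and the rise was 1.36-fold (log2 fold change 0.44, SE 0.14, adjusted p = 0.0187). At 3 h 1 mouse was at 243 CPM and the other 3 at 173 to 184 CPM. Ldhb, whose subunit favours the turning of lactate into pyruvate, was at 182, 151, 164 and 171 CPM without hormone, 242, 200.4, 209.9 and 273 CPM at 12 h and 223, 236, 197 and 211 CPM at 24 h. Neither treated group overlapped the controls, and the rise was 1.4-fold at 12 h (log2 fold change 0.48, SE 0.12, adjusted p = 0.00477) and 1.3-fold at 24 h (log2 fold change 0.37, SE 0.12, adjusted p = 0.0199). The 24 h calls of Pkm and Ldhb were each lost on leaving out either of 2 mice. Ldha, whose subunit favours lactate, was at 483, 469, 382 and 515 CPM without hormone and 473, 466, 391 and 394 CPM at 24 h, and was not called at any time (log2 fold change -0.10, SE 0.12, adjusted p = 0.542, 95% interval -0.34 to 0.13 at 24 h).

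Pdk4, the kinase that holds pyruvate dehydrogenase back, varied widely between mice of a group. It was at 1115, 1522, 1278 and 1083 CPM in hypothyroid WT mice, 1207, 2093, 2690 and 2526 CPM at 3 h and 786, 1313, 2601 and 2165 CPM at 24 h. Of the 4 mice, 3 were above all controls at 3 h and 2 at 24 h, and neither time passed (log2 fold change 0.75, SE 0.29, adjusted p = 0.111 at 3 h, log2 fold change 0.45, SE 0.29, adjusted p = 0.246 at 24 h). The muscle marker sum ran from 64.4 to 668 CPM in the hypothyroid WT mice and from 272 to 1178 CPM at 24 h, with 0 of its 10 genes called by edgeR (2 at an unadjusted p below 0.05). The summed CPM of 7 brown adipocyte markers ran from 6194 to 8302 without hormone and from 8659 to 15780 at 24 h, with 2 of the 7 called up and 3 down. The sums at 3 h (8702 to 14270), 6 h (11270 to 13280) and 12 h (10010 to 17210) also lay above all controls. Endothelial markers, at 317 to 342 CPM without hormone, lay above this at 3 h (343 to 361.5) and below it at 12 h (234 to 298), Schwann cell markers were lower at 12 h (55.1 to 64.9 against 66.4 to 75.6 CPM), and white adipocyte markers at 3 h (57.8 to 101.7 against 105 to 117.7 CPM). In the other sums the groups overlapped. The part of any of these in the results above was not tested.

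The other genes of the pathway were described from fixed lists at 24 h in WT mice, where 32.7% of all genes were called, so that shares near it, such as 2 of 6 or 3 of 11, are no result about a list. Among transporters and their regulators, Slc2a8, an intracellular glucose transporter, rose (log2 fold change 0.57) and Txnip, which restrains glucose uptake, fell (log2 fold change -0.71), while 4 of 6 tested did not pass. Of 4 other upper glycolysis genes tested, 3 rose, among them the muscle phosphofructokinase Pfkm (log2 fold change 1.05) and the isomerase Gpi1 (0.78). The muscle marker sum ran from 64.4 to 668 CPM without hormone and from 272 to 1178 CPM at 24 h, and its part in these rises was not tested. Of 5 enzymes of fructose-2,6-bisphosphate, the activator of phosphofructokinase, 3 rose, with Pfkfb1 at a log2 fold change of 1.49 and Tigar, its phosphatase, at 1.03. Of 5 lower glycolysis genes 3 rose, among them the kinase Pgk1 (log2 fold change 1.12) and Gapdh (1.22). Gapdh has many pseudogene copies, so its count is uncertain.

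Of 5 carriers of pyruvate and lactate tested, 4 rose and the monocarboxylate transporter Slc16a7 fell (log2 fold change -1.71). Mpc2, a subunit of the mitochondrial pyruvate carrier, had a log2 fold change of 0.69. Among 11 genes of pyruvate dehydrogenase and its regulators, 2 rose, led by the subunit gene Pdhb (log2 fold change 0.89), and 1 fell, the kinase gene Pdk1 (-1.19). Of 6 regulators of glycolytic genes, 3 rose and 1 fell, and the largest changes were the rises of Myc (log2 fold change 1.60) and of Mlxipl, which encodes the glucose sensor ChREBP (1.25). At 3 h edgeR called 0 of the 10 members and DESeq2 called Hk1. Of the 42 list genes tested, edgeR called 6 then, 5 up and 1 down, beside 9.19% of all genes. Pfkfb1 (log2 fold change 1.16), the pyruvate dehydrogenase phosphatase Pdp2 (1.20), the coactivator Ppargc1a (1.42) and Foxo1 (1.09) had risen and Tbc1d4, which holds GLUT4 vesicles back, had fallen (-0.68).

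In BATKO mice the same injection was compared at 24 h. edgeR called 0 of the 10 genes, with 0 at an unadjusted p below 0.05 and 0 called by DESeq2. Over all 14178 genes tested edgeR called 0%, with 673 genes at an unadjusted p below 0.05 and 0 called by DESeq2. The median log2 fold change of the 10 was -0.08, beside -0.006 over all genes. Slc2a4 was at 141, 179, 203, 137 and 143 CPM without TH and 185, 169, 172, 109 and 198 CPM with it (log2 fold change 0.05, SE 0.14, adjusted p = 0.994, 95% interval -0.23 to 0.32). Hk1 was at 16.7, 11.8, 21.4, 9.29 and 15.4 CPM without TH and 19.4, 6.97, 18, 11.7 and 11.5 CPM with it (log2 fold change -0.14, SE 0.22, adjusted p = 0.986, 95% interval -0.57 to 0.29). In both genes the groups overlapped.

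The difference between the BATKO and WT responses was tested as an interaction. It passed for 2 of the 10 genes (background 12.3%), Hk1 (log2 difference -1.65, SE 0.36, adjusted p = 0.00273) and Slc2a4 (log2 difference -0.63, SE 0.21, adjusted p = 0.0454), both lower in BATKO mice. The Slc2a4 difference was lost on leaving out any 1 of 11 of the 18 mice. It was also lost without mitochondrial genes, without the filter and with only the groups compared. The median over the 10 was -0.40, beside -0.02 over all genes. In the other pathway lists the interaction passed for 14 of 42 genes tested, 11 lower and 3 higher in BATKO mice, beside the 12.3% over all genes, and, of the 2 with the largest difference in each list, was negative for Gapdh (-1.17), Pgk1 (-1.05), Pfkm (-1.06), Gpi1 (-0.79), Pfkfb1 (-1.19), Tigar (-1.02), Pdhb (-0.86), Mlxipl (-1.09) and Foxo1 (-1.09). It was positive for Slc16a7 (1.34) and Pdk1 (1.07), all values being log2 differences. The part of muscle in the Pfkm and Gpi1 differences was not tested.

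The hypothyroid BATKO and WT libraries differed widely, with 70.3% of all genes called. Of the 10, 7 were called, of which Hk1 (log2 fold change 1.95), Pkm (1.73), Pfkl (1.43), Hk2 (0.65), Pfkp (0.57) and Ldhb (0.34) were higher and Pdk4 (-1.63) lower in BATKO mice. The Hk2 call was lost on leaving out 1 WT mouse and the Ldhb call on leaving out any of 3 mice. Pkm was at 567, 566, 648, 353 and 466 CPM in BATKO mice and 148, 129.9, 167 and 181 CPM in WT mice. Pdk4 was at 364, 337, 629, 293 and 402 CPM in BATKO mice and 1115, 1522, 1278 and 1083 CPM in WT mice. Neither gene's groups overlapped. Brown adipocyte markers summed to 1684 to 2657 CPM in the BATKO mice and 6194 to 8302 CPM in the WT mice, white adipocyte markers to 24.9 to 46.9 and 105 to 117.7 CPM, and endothelial markers to 401 to 463 and 317 to 342 CPM. The groups overlapped in the sums of the other 5 marker lists. The part of these cell types in the genes' differences was not tested. Total counts ran from 13593987 to 18073627 in the BATKO mice of the experiment and from 7805938 to 14615534 in the WT mice, and genotype and library cannot be told apart. The BATKO mice began from another level, for Hk1 9.29 to 21.4 CPM against 3.34 to 4.29 CPM.

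Cold, which activates brown fat through its sympathetic nerves, was compared with 30 °C in each genotype. In CTRL mice 8 of the 10 genes rose, from both hexokinases and phosphofructokinases to both lactate dehydrogenase subunits, beside 49.1% of the 13267 genes tested. Slc2a1 and Pdk4 did not pass. The median log2 fold change of the 10 was 1.95, beside -0.01 over all genes. In BATKO mice 8 of the 10 were called (background 40.3%), 7 up and Slc2a1 down, with a median log2 fold change of 0.74 beside -0.02. Without the 3 mice highest in muscle markers, 8 were called in CTRL mice and 9 in BATKO mice, where Pdk4 joined (log2 fold change -0.65, adjusted p = 0.0498). Leaving them out moved no member's log2 fold change by more than 0.094 in CTRL mice (Hk1) and 0.17 in BATKO mice (Pdk4).

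**Figure D2:**
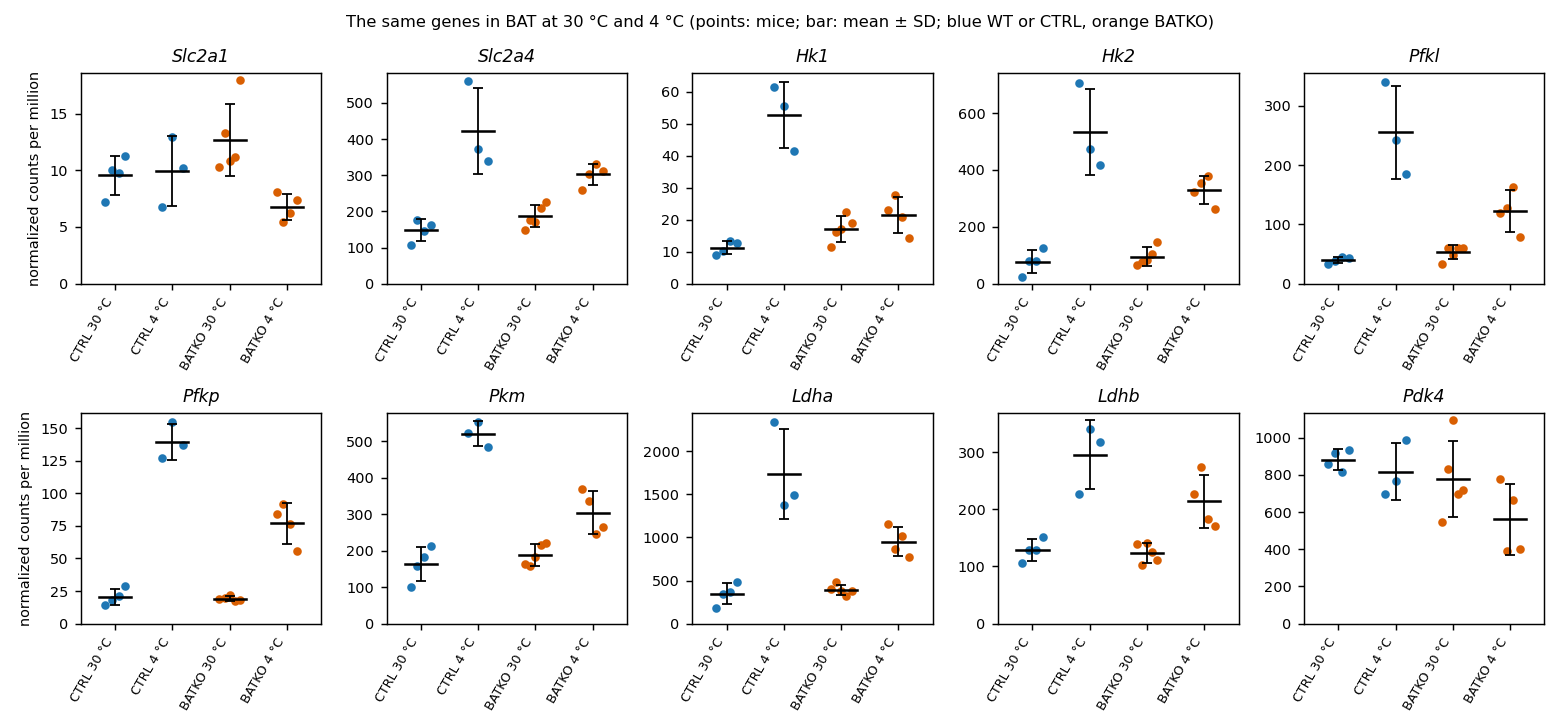
Normalized CPM (linear axis from 0) of each of the 10 genes in every mouse at 30 °C and 4 °C, by genotype, with points for mice and bars for the mean ± SD, blue for WT or CTRL and orange for BATKO mice. Pfkp lies at 127 to 155 CPM in cold CTRL mice, above the 55.8 to 91.9 CPM of cold BATKO mice and the 14.6 to 28.9 CPM of CTRL mice at 30 °C.

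Slc2a4 was at 107, 177, 146 and 162 CPM in the 4 CTRL mice at 30 °C and 559.7, 372 and 339 CPM in the 3 at 4 °C. The groups did not overlap, and GLUT4 mRNA rose 2.86-fold (log2 fold change 1.52, SE 0.20, adjusted p = 1.36e-05). In BATKO mice Slc2a4 was at 149.7, 178, 169.8, 210.2 and 226 CPM at 30 °C and 259.8, 305, 331 and 313 CPM at 4 °C, a 1.62-fold rise without overlap (log2 fold change 0.70, SE 0.18, adjusted p = 0.00484). Slc2a1 was at 7.19, 10, 9.73 and 11.3 CPM in CTRL mice at 30 °C and 6.77, 12.9 and 10.2 CPM at 4 °C, with overlap (log2 fold change 0.06, SE 0.24, adjusted p = 0.85, 95% interval -0.41 to 0.53). In BATKO mice it was at 10.3, 13.3, 10.8, 11.2 and 17.9 CPM at 30 °C and 8.07, 5.42, 6.26 and 7.34 CPM at 4 °C. Every cold BATKO mouse was below every BATKO mouse at 30 °C, and GLUT1 mRNA fell 1.87-fold (log2 fold change -0.91, SE 0.21, adjusted p = 0.00310). The difference between the genotypes' responses did not pass for either transporter with edgeR (adjusted p = 0.118 for Slc2a1 and 0.114 for Slc2a4), while DESeq2 called that of Slc2a4.

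Hk2 was at 24.1, 80.1, 81.1 and 124 CPM in CTRL mice at 30 °C and 706, 475 and 418 CPM at 4 °C. It rose 6.89-fold (log2 fold change 2.79, SE 0.39, adjusted p = 2.40e-05), with no overlap. In BATKO mice it was at 65.6, 76.3, 84.1, 104 and 148 CPM at 30 °C and 321, 354, 378 and 262 CPM at 4 °C, and rose 3.44-fold (log2 fold change 1.78, SE 0.34, adjusted p = 0.000552). Hk1 was at 8.86, 10.2, 13.4 and 12.6 CPM in CTRL mice at 30 °C and 61.4, 55.5 and 41.3 CPM at 4 °C. That is a 4.69-fold rise (log2 fold change 2.23, SE 0.24, adjusted p = 1.59e-06). In BATKO mice Hk1 was at 11.5, 16, 17.1, 22.5 and 19 CPM at 30 °C and 23, 27.6, 20.9 and 14.4 CPM at 4 °C, where the groups overlapped and the test did not pass (log2 fold change 0.32, SE 0.21, adjusted p = 0.234, 95% interval -0.09 to 0.72). The 2 hexokinase genes thus rose together in cold CTRL mice, and in cold BATKO mice Hk2 passed and Hk1 did not.

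The phosphofructokinase genes had some of the largest folds. Pfkp was at 14.6, 17.9, 21.5 and 28.9 CPM in CTRL mice at 30 °C and 127, 155 and 137 CPM at 4 °C (6.73-fold, log2 fold change 2.75, SE 0.20, adjusted p = 6.36e-08). BATKO mice had 19, 19.4, 21.8, 17.3 and 17.7 CPM at 30 °C and 84.1, 91.9, 76.2 and 55.8 CPM at 4 °C (4.04-fold, log2 fold change 2.02, SE 0.18, adjusted p = 7.72e-07). Neither genotype's groups overlapped. Pfkl was at 32.7, 39, 44.5 and 43.3 CPM in CTRL mice at 30 °C and 339.8, 242 and 185 CPM at 4 °C (6.41-fold, log2 fold change 2.68, SE 0.26, adjusted p = 5.97e-07). BATKO mice had 33.7, 60.8, 48.9, 60.4 and 60.3 CPM at 30 °C and 119.8, 127, 164 and 78.4 CPM at 4 °C (2.31-fold, log2 fold change 1.21, SE 0.22, adjusted p = 0.000406), again without overlap.

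Pkm rose 3.18-fold in CTRL mice (log2 fold change 1.67, SE 0.21, adjusted p = 1.01e-05), from 102 to 212 CPM to 484 to 552 CPM, and 1.62-fold in BATKO mice (log2 fold change 0.69, SE 0.19, adjusted p = 0.00750), from 157 to 222 CPM to 244 to 370.1 CPM. Ldha was at 187, 343, 369 and 483 CPM in CTRL mice at 30 °C and 2336, 1372 and 1494 CPM at 4 °C (5.02-fold, log2 fold change 2.33, SE 0.26, adjusted p = 3.11e-06). In BATKO mice it was at 407, 483, 377, 325 and 376 CPM at 30 °C and 1158, 865, 1012 and 775 CPM at 4 °C (2.42-fold, log2 fold change 1.28, SE 0.23, adjusted p = 0.000367). Cold and warm groups of Ldha and of Pkm did not overlap in either genotype. Ldhb rose 2.29-fold in CTRL mice (log2 fold change 1.19, SE 0.19, adjusted p = 7.49e-05), from 106 to 152 CPM to 227 to 341 CPM, and 1.73-fold in BATKO mice (log2 fold change 0.79, SE 0.17, adjusted p = 0.00132). Pdk4 was at 858, 920.4, 817 and 935 CPM in CTRL mice at 30 °C and 697, 769.6 and 988 CPM at 4 °C (log2 fold change -0.11, SE 0.25, adjusted p = 0.735). In BATKO mice it was at 544, 834, 1096, 699 and 719 CPM at 30 °C and 778, 393, 668 and 403 CPM at 4 °C (log2 fold change -0.47, SE 0.22, adjusted p = 0.0978), and in both genotypes the groups overlapped. Hk2, Pkm, Ldha and Ldhb, with ACGTG or AGGTCA in a window, rose in both genotypes, and Slc2a1, with ACGTG, rose in neither. Of the members whose windows held neither word, Pfkl and Pfkp rose in both, Hk1 passed in CTRL mice only and Pdk4 in neither. A link between these words and the response to cold was not tested.

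Over the same mice the brown adipocyte marker sum ran from 489.9 to 2109 CPM at 30 °C to between 16210 and 19680 CPM at 4 °C in CTRL mice, and from 1027 to 2021 CPM to between 8207 and 15970 CPM in BATKO mice, with 6 of 7 markers up in each. The sum of 5 erythroid markers ran from 177 to 333 CPM at 30 °C and from 766 to 1711 CPM at 4 °C in CTRL mice, and from 182 to 494 CPM and 771 to 1111 CPM in BATKO mice, with 3 of the 5 up in each. In CTRL mice the fibroblast sum (179 to 287 CPM at 30 °C and 164 to 167 CPM at 4 °C) and the macrophage and leukocyte sum (49 to 85.3 and 33.7 to 42.3 CPM) were lower in the cold without overlap, whereas in BATKO mice they overlapped. The part of these markers in the results was not tested. edgeR called 0 of the 10 muscle markers in either genotype (0 and 0 at an unadjusted p below 0.05), and the median over them was lower in the cold (log2 fold change -2.26 in CTRL and -1.83 in BATKO mice).

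The genotypes' cold responses differed for 2 of the 10 genes (background 1.12%), Hk1 (log2 difference -1.91, SE 0.31, adjusted p = 0.0165) and Pfkl (log2 difference -1.47, SE 0.33, adjusted p = 0.0435), both with a lower log2 fold change in BATKO mice, where Hk1 did not pass as a rise. DESeq2 called 5 of the 10 (also Slc2a4, Pkm and Ldha), and 7 had an unadjusted edgeR p below 0.05. The Pfkl difference was lost without the 3 mice highest in muscle markers (log2 difference -1.63, adjusted p = 0.101) and on leaving out any 1 of 12 of the 16 mice. The Hk1 difference was lost on leaving out 1 mouse, the first of the 3 cold CTRL mice. The median difference of the 10 was -0.97, beside -0.02 over all genes. At 4 °C itself, Hk1 (log2 fold change -1.30, adjusted p = 0.0123), Pfkl (-1.06, 0.0362) and Pfkp (-0.86, 0.0322) were lower in BATKO than in CTRL mice (background 2.16%). Of the 10, DESeq2 called 5 (also Pkm and Ldha), and 9 had an unadjusted edgeR p below 0.05. The Hk1 call was lost without the first cold CTRL mouse, the Pfkl call on leaving out any 1 of 5 of the 7 mice and the Pfkp call any 1 of 4, that mouse among them in each case. The Pfkl and Pfkp calls were also lost in a fit of the 2 groups alone. Between these groups the brown adipocyte sum was lower and the fibroblast sum higher in BATKO mice (173 to 353 against 164 to 167 CPM), without overlap, and their part in these calls was not tested. At 30 °C edgeR called 0 of the 10 between genotypes, with 1 at an unadjusted p below 0.05 and 0 by DESeq2. Over all genes it called 0.00754%, that is 1 gene, with 1209 at an unadjusted p below 0.05 and 7 called by DESeq2.

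**Figure D3:**
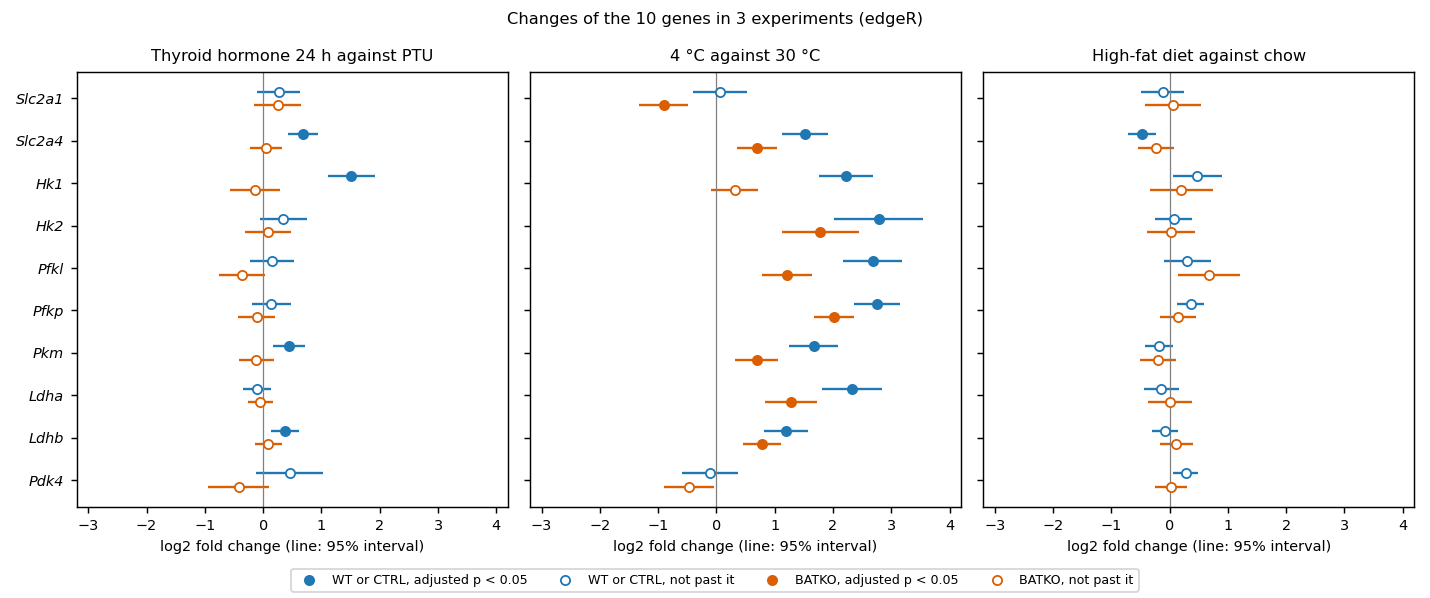
Log2 fold change of each of the 10 genes with its 95% interval, for TH at 24 h, cold and HFD, blue for WT or CTRL and orange for BATKO mice, filled where the adjusted p is below 0.05. The cold changes of CTRL mice reach 2.79 (Hk2), those of TH in WT mice reach 1.52 (Hk1), and the intervals of TH in BATKO mice all cross 0.

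In the other pathway lists, to be read against the 49.1% of all genes called in CTRL and 40.3% in BATKO mice, 3 of 4 upper glycolysis genes tested rose in cold CTRL mice, led by the aldolase Aldoa (log2 fold change 2.49) and Gpi1 (1.22). Of 5 lower glycolysis genes 4 rose, led by the enolase Eno1 (log2 fold change 2.04) and Pgk1 (1.89). In BATKO mice 3 upper genes rose, with Aldoa at a log2 fold change of 1.38, and Pfkm fell (-1.06), a call lost without the 3 mice highest in muscle markers (-0.27, adjusted p = 0.396), while 4 lower genes rose, led by Gapdh (1.63) and Eno1 (1.44). Of transporters and their regulators, 2 of 8 rose and 2 fell in each genotype, and Txnip fell in both (log2 fold change -1.04 in CTRL and -0.86 in BATKO mice). Among enzymes of fructose-2,6-bisphosphate Tigar rose in both (1.53 and 1.09), alone of the 5 in CTRL mice and with Pfkfb3 (0.64) in BATKO mice. Of the 44 genes of the lists tested, 28 were called in cold CTRL mice and 30 in cold BATKO mice, and without the 3 mice 27 and 23. Tbc1d4 was lost in CTRL mice, and Arrdc4, Gpi1, Pfkm, Pfkfb3, Pdp1, Pdp2 and Pdpr in BATKO mice.

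Of 5 carriers, 4 rose in cold CTRL mice and 3 in cold BATKO mice, with Mpc2 at log2 fold changes of 2.36 and 1.89, and Slc16a7 fell in both (-2.61 and -1.51). Of 11 genes of pyruvate dehydrogenase and its regulators 6 rose in CTRL mice and 7 in BATKO mice, where 1 fell, and the 6 of 11 in CTRL mice are close to the share of all genes. The component Pdhx had log2 fold changes of 1.89 and 1.65. Of 6 regulators, 3 rose and 2 fell in CTRL mice, and 2 rose and 2 fell in BATKO mice. Ppargc1a rose (log2 fold change 2.57 in CTRL and 1.19 in BATKO mice) and Myc fell (-3.53 and -3.40). At 4 °C Ppargc1a was lower (log2 fold change -1.65) and Slc16a7 higher (1.33) in BATKO than in CTRL mice.

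The last comparison asked for the effect of a short HFD. In CTRL mice 1 of the 10 genes was called, Slc2a4, beside 3.94% of the 12932 genes tested. It was at 119, 94.7, 128 and 106 CPM on chow and 76.7, 87.3, 73.8 and 85 CPM on HFD, so that the groups did not overlap, and fell 1.39-fold (log2 fold change -0.47, SE 0.12, adjusted p = 0.0443). The call was lost in a fit of the 2 groups alone (adjusted p = 0.0613) and on leaving out any 1 of 7 of the 8 mice. Pfkp was at 29.5, 29.6, 25.1 and 21.6 CPM on chow and 29.9, 37.4, 37.5 and 30.7 CPM on HFD (log2 fold change 0.36, SE 0.12, adjusted p = 0.105), and Pdk4 at 1404, 1632, 1380 and 1675 CPM on chow and 1884, 2072, 1629 and 1791 CPM on HFD (log2 fold change 0.28, SE 0.11, adjusted p = 0.158). The median of the 10 was -0.01, beside 0.01 over all genes. The muscle marker sum ran from 0.847 to 2230 CPM on chow and from 0.889 to 573 CPM on HFD, and 3 of 4 fibroblast markers were called up on HFD. The sum of macrophage and leukocyte markers ran from 45.6 to 54 CPM on chow and from 63.9 to 186 CPM on HFD, without overlap. Their part in the Slc2a4 result was not tested. In the other lists Slc16a1 rose (log2 fold change 0.74), and Pdk1 (-0.87) and Ppara (-0.52) fell.

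**Figure D4:**
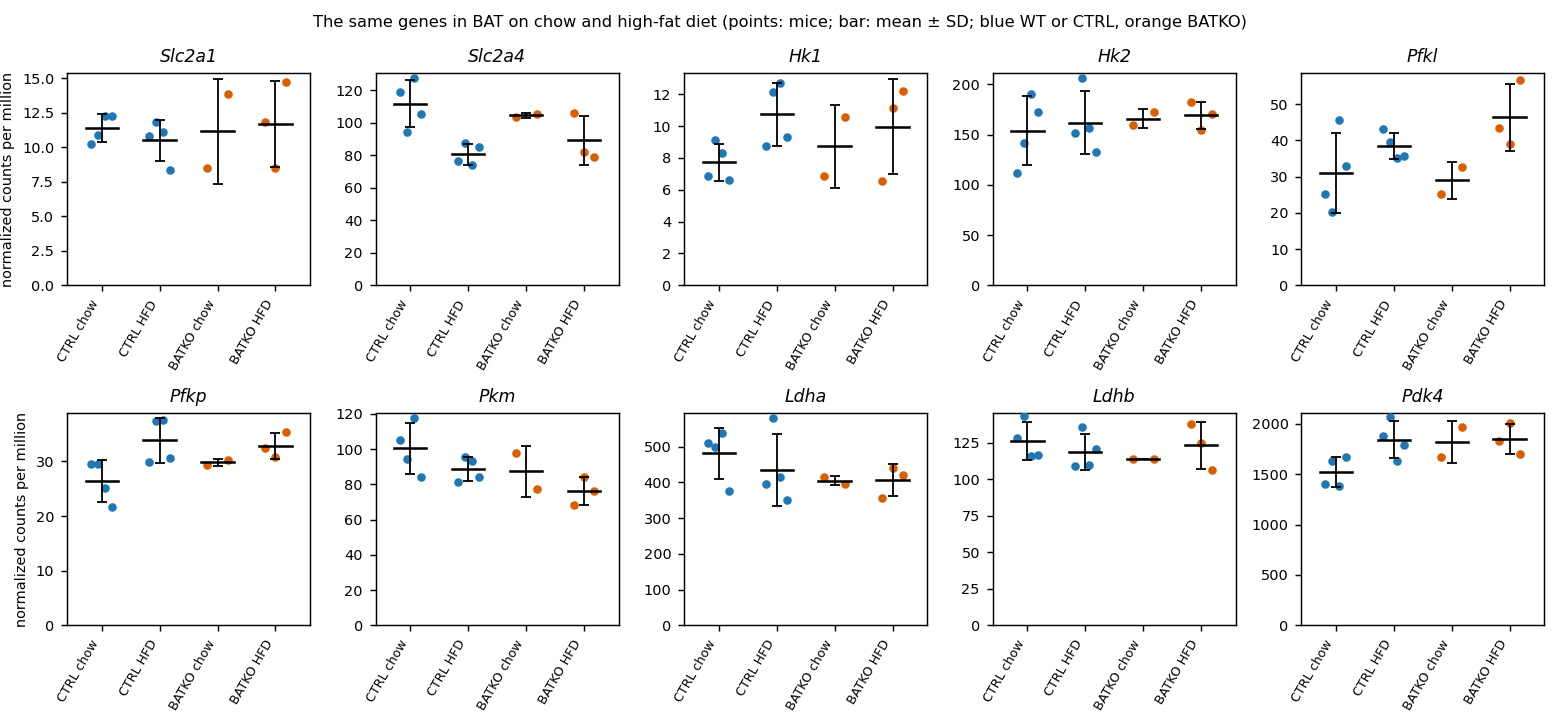
Normalized CPM (linear axis from 0) of each of the 10 genes in every mouse on chow and HFD, by genotype, with points for mice and bars for the mean ± SD, blue for WT or CTRL and orange for BATKO mice. Slc2a4 lies at 73.8 to 87.3 CPM in CTRL mice on HFD, below the 94.7 to 128 CPM of CTRL mice on chow.

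In BATKO mice, with 2 mice on chow and 3 on HFD, Slc2a4 was at 104 and 105 CPM on chow and 106, 82.3 and 78.9 CPM on HFD (log2 fold change -0.23, SE 0.16, adjusted p = 0.497). edgeR and DESeq2 each called 0 of the 10, with 1 at an unadjusted p below 0.05, and edgeR called 0.0696% of all genes (9 genes, against 248 with DESeq2). The difference between the genotypes' HFD responses passed for 0% of genes and 0 of the 10 by edgeR, with 740 genes and 0 of the 10 at an unadjusted p below 0.05 and 0 genes called by DESeq2. Between genotypes edgeR called 0% of genes on HFD (691 at an unadjusted p below 0.05, 13 called by DESeq2) and 0% on chow (1024 and 30). None of the 10 was called by either tool or had an unadjusted p below 0.05 in these 2 comparisons. The number of mice limits the precision here, as the 95% interval of the Slc2a4 response in BATKO mice shows (-0.54 to 0.07).

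Within each mouse, 4 log2 ratios of per-length levels between related genes (Slc2a4 to Slc2a1, Hk2 to Hk1, Pfkp to Pfkl and Ldhb to Ldha) were compared in 11 comparisons, giving 44 exact permutation tests. None passed after adjustment (smallest adjusted p = 0.1995), and 7 had an unadjusted p below 0.05. The smallest p possible ran from 0.00794 (5 mice against 5) to 0.0571 (3 against 4) in these exact permutation tests. With such limits an adjustment over 44 tests could hardly be passed, so the lack of a pass does not show that the ratios were unchanged. The Hk2 to Hk1 ratio ran from 30.3 to 67.7 in hypothyroid WT mice and from 15.1 to 22.6 at 24 h after TH, without overlap (geometric means 41.9 and 19.3, difference of mean log2 ratios -1.12, exact permutation test, two-sided p = 0.0286, adjusted p = 0.20). The Ldhb to Ldha ratio ran from 0.679 to 0.902 without TH and 0.995 to 1.13 at 24 h (geometric means 0.764 and 1.06, difference of mean log2 ratios 0.47, exact permutation test, two-sided p = 0.0286, adjusted p = 0.20). With 4 mice against 4 this p is the smallest the test can give. At 3, 6 and 12 h the groups overlapped in both ratios (exact permutation test, two-sided p from 0.114 to 0.229), as they did in BATKO mice at 24 h, where the differences of mean log2 ratios were 0.20 for Hk2 to Hk1 and 0.14 for Ldhb to Ldha. The Slc2a4 to Slc2a1 ratio ran from 25.4 to 38.1 in hypothyroid WT mice, 45.2 to 50.3 at 6 h and 44.6 to 70.5 at 12 h, without overlap (differences 0.66 and 0.88, exact permutation test, two-sided p = 0.0286 and adjusted p = 0.20 for each). At 3 and 24 h it overlapped with the controls, and in BATKO mice its difference was -0.14.

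**Figure D5:**
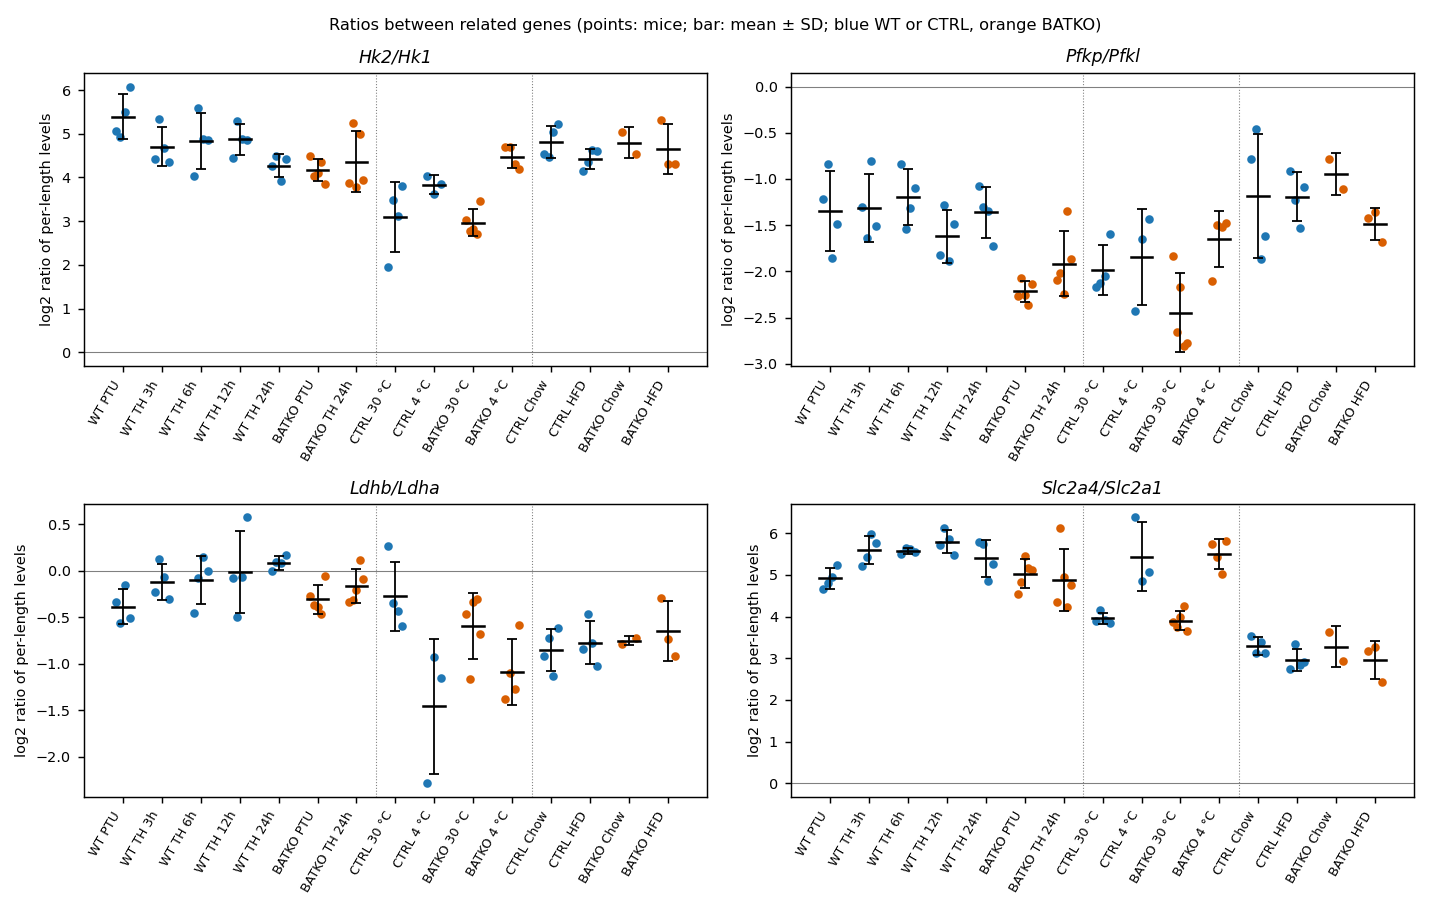
Log2 ratio of per-length levels between related genes in every mouse (points), by group, with bars for the mean ± SD, blue for WT or CTRL and orange for BATKO mice. The mean log2 ratio of Hk2 to Hk1 is 5.39 in hypothyroid WT mice and 4.27 24 h after TH.

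In the cold, the Slc2a4 to Slc2a1 ratio of BATKO mice ran from 12.7 to 19 at 30 °C and 32.5 to 56.7 at 4 °C (difference of mean log2 ratios 1.60, exact permutation test, two-sided p = 0.0159, adjusted p = 0.20). In CTRL mice it ran from 14.5 to 17.9 and 29.1 to 83.3, also without overlap (difference 1.48, exact permutation test, two-sided p = 0.0571, adjusted p = 0.229). The Hk2 to Hk1 ratio of BATKO mice ran from 6.58 to 11.1 and 18.3 to 26.1 (difference of mean log2 ratios 1.52, exact permutation test, two-sided p = 0.0159, adjusted p = 0.20), and that of CTRL mice from 3.89 to 14.1 and 12.2 to 16.5, with overlap (difference 0.74, exact permutation test, two-sided p = 0.114, adjusted p = 0.265). In CTRL mice the Ldhb to Ldha ratio ran from 0.664 to 1.2 at 30 °C and 0.205 to 0.524 at 4 °C, the Ldha share being higher in the cold, without passing (difference of mean log2 ratios -1.18, exact permutation test, two-sided p = 0.0571, adjusted p = 0.229), where 3 mice against 4 cannot give a p below 0.0571. In BATKO mice it ran from 0.445 to 0.811 and 0.383 to 0.668, with overlap (difference -0.49, exact permutation test, two-sided p = 0.0794, adjusted p = 0.265). The Pfkp to Pfkl ratio of BATKO mice ran from 0.1425 to 0.281 at 30 °C and 0.232 to 0.3601 at 4 °C, with overlap. Its difference was 0.80 (exact permutation test, two-sided p = 0.03175, adjusted p = 0.20), and 0.15 in CTRL mice, with overlap. At 4 °C the Hk2 to Hk1 ratio was higher in BATKO than in CTRL mice, without overlap (difference 0.64, exact permutation test, two-sided p = 0.0571, adjusted p = 0.229). The difference between the genotypes' changes in these ratios was not tested.

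As a description over the 20 WT mice of the TH experiment, with no test, the genes whose log2 CPM was most like that of the members were sought among 9216 genes with a mean count above 50. Slc2a4 was most like Dmtn (Pearson r = 0.929) and Nfic (0.920), and Hk1 most like Fdx1 (0.916) and Dlg1 (0.913). Ldhb was closest to Gm5514 (r = 0.938) and Azin1 (0.861), Pkm to Manbal (0.869) and the glycolytic isomerase gene Gpi1 (0.853), and Ldha to Rab1a (0.883) and Nipsnap2 (0.832). Pdk4 was closest to Adra1a (r = 0.851) and 4930481A15Rik (0.826), and Hk2 to Ripor2 (0.822) and Def8 (0.787). Pfkl was closest to Gm15564 and Gm11964 (r = 0.855 each), and Pfkp to Csnk1g1 (0.795) and Grk3 (0.786). The 20 mice share the TH groups, so that such values include the response to TH. Slc2a1, which had few counts in these mice, reached 0.812 with Cdc42se1 and 0.769 with Tnks1bp1.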

How the data were processed

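The authors used Bowtie to align RNA-seq reads of BAT to GRCm38 (per the submitters' processing notes, Bowtie2 2.3.2.2 and mm10). Alignments of quality under 10 were dropped, htseqcount gave the counts per gene, and these were deposited without normalization. The gene annotation and strand setting are not given in the sources used here. Groups came from the sample labels, 0 columns were left unmatched, and each replicate was 1 mouse. Of the listed rows, 14 were symbols turned into dates (0.0278% to 0.0469% of counts), and they stayed in the counts analysed. Positions, exon lengths and overlaps came from GENCODE M21.

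Counts were analysed in R 4.3.3 with edgeR 4.0.16 (TMM, mean normalized count above 10, quasi-likelihood test, Benjamini-Hochberg adjustment over all genes tested, threshold 0.05) and limma 3.58.1. All 10 genes passed the count filter in each fit. WT mice were fitted over the time course, BATKO and WT mice together for the interaction, and the temperature and diet experiments each over all their mice. Intervals at 95% are the estimate ± 1.96 SE, with the SE taken from the quasi-likelihood statistic. They are approximate and somewhat too narrow, because 1.96 ignores the few degrees of freedom of the test. For Pkm at 3 h after TH, for example, the interval was 0.014 to 0.56 at an unadjusted edgeR p of 0.0517. The fits were tested on simulated data. Ratios were compared by exact permutation tests in Python 3.11.15 with scipy 1.17.1.

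The 10 genes, the lists and the tests were chosen with earlier results of these data known. Named genes are the 10 members, the 2 called genes with the largest change in each other pathway list and comparison, the 2 genes of highest Pearson correlation with each member, and Hr and brown fat genes as checks. List genes whose cold calls were lost without the 3 mice highest in muscle markers are also named. Alternatives were DESeq2 1.42.0, its size factors, no mitochondrial genes, no filter, a mean above 50, only the groups compared, all 30 mice of the TH experiment, each mouse left out in turn, and, added after seeing the data, a fit without the 3 mice highest in muscle markers. Among 91 pairs of mice of a group, chi-square over degrees of freedom was never below 6.891, so that within groups no library was a copy of another. Nothing in the labels says that mice came from separate litters or cages, and p-values measure the spread between these mice.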

Additional observations from a re-analysis of the deposited data

Results flagged for a closer look

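The responses of BATKO mice differed from those of WT or CTRL mice for 3 of the 10 genes, tested as an interaction with edgeR, which called 12.3% of all genes for TH and 1.12% for cold. This tally depends on the tool, as DESeq2 called 2 of the 10 for TH and 5 for cold (also Slc2a4, Pkm and Ldha). After TH the log2 difference between the BATKO and WT responses was -1.65 for Hk1 and -0.63 for Slc2a4. In the cold the log2 difference between the BATKO and CTRL responses was -1.91 for Hk1 and -1.47 for Pfkl. The TH difference of Slc2a4 was lost under 3 settings and on leaving out any 1 of 11 of the 18 mice. The cold difference of Pfkl was lost without the 3 mice highest in muscle markers and on leaving out any 1 of 12 of the 16 mice, and that of Hk1 on leaving out 1 mouse. The TH difference of Hk1 was lost under none of these. Its level without TH already differed, at 9.29 to 21.4 CPM in BATKO and 3.34 to 4.29 CPM in WT mice. Genotype and library cannot be told apart there, which the settings do not address.

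In 3 of 120 sets of values (a gene in a group of 4 or 5 mice), 1 mouse stood far from the others. Chance gives about 1 in 20, or 6 of 120, so that these 3 are fewer than chance gives. Pkm was at 243 CPM in 1 WT mouse 3 h after TH, the others lying between 173 and 184 CPM. At 6 h it was at 223 CPM in 1 WT mouse, the others lying between 168.5 and 174 CPM. Ldhb was at 284 CPM in 1 hypothyroid BATKO mouse, the others lying between 176 and 205 CPM. Pkm was called at neither time, and Ldhb of hypothyroid BATKO mice enters the comparison with WT mice, where its call was lost without this mouse.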

How the results depend on the processing

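Of 42 calls of members, 28 held under every setting and with every mouse left out, among them Slc2a4 at 6, 12 and 24 h after TH, Hk1 at 12 and 24 h, the difference of its TH response between genotypes, and all calls of the cold comparisons within a genotype. No direction was reversed. Counts of members called moved as follows, and the cause was not tested. At 3 h after TH the count went from 0 to 1 with DESeq2 and to 2 without the filter, and at 6 h from 2 to 1 with all 30 mice and to 3 with DESeq2 and with only genes of a mean count above 50 (Ldhb). At 12 h it went from 4 to 5, with Pfkp lower, without mitochondrial genes, without the filter and with only the groups compared. Between hypothyroid BATKO and WT mice it went from 7 to 8 with DESeq2 and with its size factors (Ldha). For the difference of the TH responses it went from 2 to 1 without mitochondrial genes, without the filter and with only the groups compared. For the difference of the cold responses it went from 2 to 5 with DESeq2 (703 genes in all against 149 with edgeR) and to 1 without the 3 mice highest in muscle markers. Between genotypes at 4 °C it went from 3 to 5 with DESeq2 (653 genes in all against 286) and to 1 with only the groups compared (61 genes in all). For cold in BATKO mice it went from 8 to 9, with Pdk4 lower, without the 3 mice highest in muscle markers. For HFD in CTRL mice it went from 1 to 0 with only the groups compared. Leaving out 1 mouse at a time gave 0 to 2 calls at 3 h, 1 to 2 at 6 h, 3 to 5 at 12 h, 2 to 5 at 24 h, 0 to 0 from 3 to 6 h and from 6 to 12 h, and 0 to 3 from 12 to 24 h. It gave 0 to 0 for TH in BATKO mice, 1 to 3 for the difference of the TH responses and 5 to 8 between hypothyroid BATKO and WT mice. It gave 8 to 8 for cold in CTRL mice, 8 to 9 in BATKO mice, 0 to 3 for their difference, 0 to 3 between genotypes at 4 °C and 0 to 0 at 30 °C. It gave 0 to 1 for HFD in CTRL mice and 0 to 0 in the other diet comparisons. Both counts of 0 in the cold genotype comparisons came without the first cold CTRL mouse. Ratios passed in 0 tests, also with 1 count added, although with so few mice these tests could hardly pass after adjustment. No paired analysis was possible because the groups compared hold different mice, and numbers that recur between experiments or genotypes name different animals.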
